A study of Drosophila melanogaster with 17 samples.

Results

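The genes described here are those of the cAMP pathway by which fly mushroom body neurons learn, together with CngA, a subunit of an ion channel opened by cyclic nucleotides. The list names rut, dnc, Ac76E, Pka-C1, Pka-R1, Pka-R2, CrebA, CrebB and CngA. Every probe set (a group of short probes on the array that reads 1 transcript) whose single annotated symbol, current or older, is one of these names was taken. This gave 14 of 13966 probe sets, and 6 of the 9 genes: Ac76E, rut, dnc, Pka-R1, CrebB and CngA. Pka-C1, Pka-R2 and CrebA matched 0 probe sets and are not analysed here. A probe set annotated dco shares an older name with Pka-C1 but carries the gene ID of another gene, so it was left out.

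Mushroom body neurons were profiled at 3 times relative to puparium formation, the moment when the larval skin hardens into the pupal case. There were 7 arrays from larvae of the third instar at -18 h, before the hormone pulse that ends larval life, 7 from newly formed white prepupae at 0 h and 3 from animals at 5 h. All 3 groups share 1 genotype, y w with UAS-mCD8::GFP and OK107-GAL4, so the groups differ in stage. OK107-GAL4 drives a membrane-bound green protein in mushroom body neurons, and cell bodies marked by it were cut by laser from frozen sections and pooled over many captures for each array. The labels call the arrays of a stage biological replicates. The RNA was amplified linearly before labelling, and the deposited values are log2 RMA values, in which a step of 1 is a doubling.

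Cyclic AMP is made from ATP by adenylyl cyclases and broken down by phosphodiesterases. It binds the regulatory subunits of protein kinase A (PKA), which frees the catalytic subunits to act on other proteins, among them CREB transcription factors, and it also opens some ion channels. In flies, rut and dnc were found as mutants that learn odours poorly, and both products act in mushroom body neurons, whose gamma type prunes its larval branches early in pupal life. In these pooled captures, fewer cells of a type and less RNA per cell cannot be told apart.

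The arrays were alike in overall level, with medians between 4.32 and 4.43 log2. The lower quartile of each array, 3.33 to 3.47 log2, served as the floor under which a probe set has no measured level, and the 8 control probe sets for genes of other organisms averaged 2.80 to 3.02. The mushroom body regulators ey and toy were high on every array (8.42 to 9.23 and 7.48 to 9.18), while the list of 9 neuron markers averaged 5.50 to 6.15 in larvae, 5.45 to 5.71 in white prepupae and 5.32 to 5.41 at 5 h. These neuron markers did not move together. The gene prt, a transporter gene of mushroom body neurons, read 8.03 to 8.88 in larvae, 5.47 to 6.53 in white prepupae and 4.16 to 4.33 at 5 h. Dop1R1 and sNPF also averaged lower after the larval stage. In the other direction, toy averaged 8.08, 8.33 and 9.15 at the 3 times and mamo 5.20, 6.03 and 5.48. The group means of ey, dac, elav and nSyb spanned at most 0.31. Markers of other tissues were present too. The 5 glial markers averaged 5.73 to 6.06 over the larval arrays, 5.43 to 6.01 over those of 0 h and 6.03 to 6.11 over those of 5 h. Single glial markers moved in different directions. At the 3 times in turn, repo averaged 6.66, 7.70 and 7.53, wrapper 8.33, 7.56 and 8.32, and Gs2 4.27, 3.73 and 3.65. The glial gene nrv2 read 4.92 to 5.57, 3.81 to 5.42 and 5.90 to 6.16, and moody averaged 4.78, 4.96 and 4.78. The 4 fat body markers averaged 6.14 to 8.89, 5.25 to 7.30 and 6.80 to 8.62 at those times. Of them, Fbp1 averaged 5.99, 6.82 and 8.07. Fbp2, Lsp2 and Obp99b averaged lower at 0 h than in larvae (Obp99b 5.74 and 7.75). Salivary gland glue genes (5 of 5 measured) spanned 3.88 to 11.51 across larval arrays, against 3.66 to 3.89 in white prepupae and 3.65 to 3.71 later, and muscle genes (3 of 6) spanned 4.60 to 8.13 in larvae, 4.48 to 4.70 in white prepupae and 4.59 to 4.88 later. Of the remaining lists, hemocyte genes averaged 3.78 to 4.34 over the larval arrays and 3.89 to 4.12 later, neuroblast genes 4.80 to 5.13 and 4.63 to 4.85, and photoreceptor genes 3.20 to 3.41 and 3.21 to 3.46. The hemocyte gene NimC1, the neuroblast gene ase and the photoreceptor gene trp lay under the lower quartile on every array, but other genes of these lists were measured. The neuroblast gene mira read 6.12 to 7.89, and wor and dpn 4.36 to 5.20. The hemocyte gene Pxn averaged 5.55 in larvae, 6.56 at 0 h and 6.90 at 5 h. Of the other hemocyte genes, vkg and Col4a1 read 3.49 to 4.62, and Hml lay under the lower quartile on 5 of 7 larval arrays and all later ones. The photoreceptor gene chp read 3.63 to 4.12. The difference between the 3′ and middle probe sets of eIF4a, a sign of RNA length, was 3.03 ± 0.08 in larvae (SD, n = 7), 2.81 ± 0.20 in white prepupae (SD, n = 7) and 2.58 ± 0.01 at 5 h (SD, n = 3). The part that these signals play in the changes below was not tested, except where values with and without an array set are given.

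In white prepupae against larvae, a few of the listed genes changed, and CngA and Ac76E changed by large amounts. At 0 h against -18 h, 4 of 14 probe sets passed an adjusted p of 0.05, where 25.5% of all 13966 probe sets did so (limma over all arrays, with Benjamini-Hochberg adjustment over all probe sets). CngA was the 1 that was higher (13.6% of all probe sets were), and Ac76E, 1 probe set of Pka-R1 and 1 of dnc were lower (11.9% of all were). The other 10 probe sets did not pass. Between 5 h and 0 h, 1 of 14 passed, CngA again, and it was higher, where 3.77% of all probe sets passed, 2.36% higher and 1.42% lower. Between 5 h and -18 h, 4 of 14 passed, where 20.0% did, with 1 higher (11.0% of all probe sets) and 3 lower (9.06%). The groups did not overlap in 3, 1 and 3 of the 14 probe sets in these comparisons, against 11.3%, 8.49% and 20.4% of all probe sets. The median log2 difference over the 14 was -0.05, -0.07 and -0.16 in these comparisons in turn, and over all probe sets it was -0.02, -0.04 and -0.07. The comparisons share arrays, so their counts are not independent of each other.

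**Figure D1:**
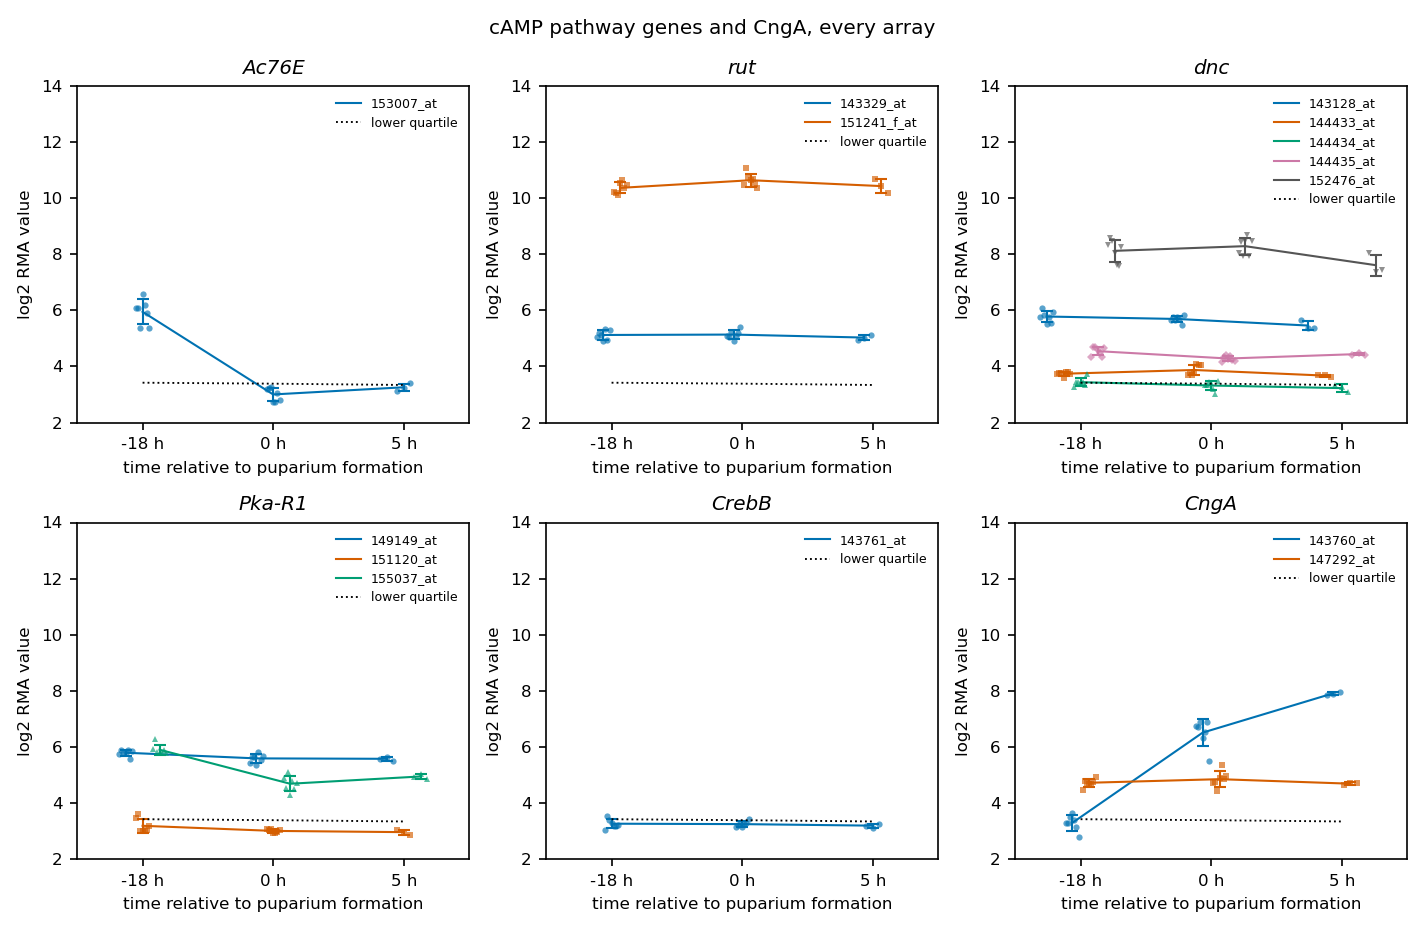
Log2 RMA value (vertical axis) of each of the 14 probe sets on each array at -18 h, 0 h and 5 h, with 1 panel per gene. Points are arrays, the lines join group means, bars are SD (7, 7 and 3 arrays) and the dotted line is the mean lower quartile of the arrays. CngA 143760_at climbs between larva and 5 h and Ac76E lies at or under the dotted line after the larval stage, while most other probe sets stay level.

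The cyclases, which make cAMP, came out differently. Ac76E, a membrane adenylyl cyclase, was well measured only in larvae. Its probe set (153007_at) read 5.38, 6.09 and 6.59 log2 at -18 h (lowest, median and highest of 7 arrays) and 2.75, 3.04 and 3.27 at 0 h, and the 3 arrays at 5 h read 3.14, 3.24 and 3.40. The lowest larval array (5.38) stood far above the highest later array (3.40), so neither later group overlapped the larval one. All 7 arrays at 0 h and 2 of the 3 at 5 h lay under their own lower quartile, so the fall is given as a bound.

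Ac76E was at least 5.91-fold lower at 0 h than at -18 h, with each array under the lower quartile taken at that quartile. The measured means were 3.003 ± 0.234 at 0 h and 5.95 ± 0.44 at -18 h (n = 7 each, SD), a log2 difference of -2.95 (SE 0.15, limma adjusted p = 6.1e-12). This was the 12th largest fall of the 13966 probe sets in that comparison. At 5 h the gene was at least 6.03-fold lower than at -18 h (means 3.26 ± 0.13, n = 3, and 5.95 ± 0.44, n = 7, SD), a difference of -2.69 (SE 0.20, limma adjusted p = 2.82e-09). Between 5 h and 0 h both groups were near the floor, and the difference of 0.26 did not pass (95% interval -0.16 to 0.67, limma adjusted p = 0.66).

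With larval arrays 1, 4, 6 and 7 left out, 4 arrays that carry glue or muscle transcripts, the difference of Ac76E at 0 h against -18 h was -2.89, in place of -2.95. Other tissue signal remains in that value: the muscle gene Mlc2 read 4.74 to 5.15 at 0 h and 7.06 on larval array 5, which was kept and has the highest larval level of the fat body gene Fbp2 (9.95). Leaving out each array in turn, array 5 among them, gave -3.04 to -2.84, and the part of the fat body signal was not tested. The arrays also fall into 2 sets by the signal of the control RNAs added before hybridisation, divided at 9.10 log2, with 4 larval and 3 prepupal arrays in the higher set and 3, 4 and 3 arrays of the 3 stages in the lower. Within the higher set Ac76E differed by -2.88 at 0 h against -18 h, and within the lower set by -3.13.

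rut encodes the adenylyl cyclase that answers to calcium with calmodulin, and its loss impairs odour learning in flies. Neither of its probe sets passed in any comparison. The brighter one (151241_f_at) read 10.11, 10.38 and 10.63 log2 at -18 h (lowest, median and highest), 10.35, 10.65 and 11.08 at 0 h, and 10.67, 10.43 and 10.19 on the 3 arrays at 5 h. These ranges overlap at every stage. The suffix of this probe set marks a family of like sequences in the maker's naming, so it may also read transcripts of other genes.

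For rut 151241_f_at the difference at 0 h against -18 h was 0.27 (SE 0.11, 95% interval 0.04 to 0.50), with a limma adjusted p of 0.0761. It passed after quantile normalisation of the arrays, with a difference of 0.33, and with 2 of the 17 arrays left out in turn (limma adjusted p down to 0.0362). The difference was -0.21 at 5 h against 0 h (95% interval -0.50 to 0.09), and at 5 h against -18 h 0.06 (-0.23 to 0.36). The second probe set of rut (143329_at) ranged over 4.92 to 5.35 in larvae, 4.91 to 5.41 in white prepupae and 4.96 to 5.11 at 5 h. Its differences were 0.01 (95% interval -0.16 to 0.19), -0.11 (-0.33 to 0.12) and -0.09 (-0.32 to 0.13) for the 3 comparisons in the order above. That these differences did not pass does not show that rut stayed constant.

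dnc encodes the phosphodiesterase that breaks cAMP down, and it is read by 5 probe sets. The brightest (152476_at) had values of 7.57, 8.26 and 8.57 log2 at -18 h (lowest, median and highest), 7.95, 8.45 and 8.69 at 0 h, and 8.04, 7.37 and 7.43 on the 3 arrays at 5 h. Of the arrays at 5 h, 2 lay below every array of 0 h and 1 lay within their range, so the groups overlap. The log2 difference was -0.68 at 5 h against 0 h (SE 0.21, 1.6-fold, limma adjusted p = 0.092), which did not pass. It passed with only these 2 stages in the fit (adjusted p = 0.0448). The median over the 5 probe sets was on every array the value of 144435_at, the middle one in level, so it adds nothing to that probe set. It gave -0.26 at 0 h against -18 h, which passed, and 0.16 at 5 h against 0 h, which did not. The differences of 152476_at at 0 h against -18 h (0.17, adjusted p = 0.53) and at 5 h against -18 h (-0.51, adjusted p = 0.104) did not pass in the same limma fit. The last of these passed with 3 of the 17 arrays left out in turn (adjusted p down to 0.0392).

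Small falls passed in 2 of the 4 dimmer dnc probe sets, and both calls depended on the setting. dnc 144435_at ranged over 4.16 to 4.42 at 0 h, against 4.34 to 4.71 at -18 h, so the groups overlap by a little. Its difference was -0.26 (SE 0.07, 1.2-fold lower at 0 h, limma adjusted p = 0.00841). Taken within the higher spike-in set alone it was -0.33, within the lower one -0.19, and it passed in neither. dnc 143128_at read 5.64, 5.36 and 5.38 at 5 h, against 5.52, 5.76 and 6.08 at -18 h (lowest, median and highest), with overlap. It differed by -0.32 (SE 0.11, limma adjusted p = 0.0485). That call was lost in 4 other settings, among them a block on the spike-in sets (-0.25), and with 12 of the 17 arrays left out in turn, and the adjusted p ranged over 0.0153 to 0.397 across its alternatives.

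The last 2 dnc probe sets lay low and did not pass. dnc 144433_at spanned 3.60 to 3.81 in larvae, 3.69 to 4.10 in white prepupae and 3.63 to 3.70 at 5 h. dnc 144434_at lay about the floor, with 4 of 7, 4 of 7 and 2 of 3 arrays under the lower quartile, and no fold is given for it. At 0 h against -18 h the 5 probe sets did not share a direction: 2 had differences above 0 and 3 below, and only that of 144435_at passed. At 5 h against 0 h that of 144435_at lay above 0 and the others below, and none passed. Over the whole span, 5 h against -18 h, all 5 lay below 0 (-0.51 to -0.07), and only that of 143128_at passed. Set against the other probe sets of dnc by an exact permutation test on the per-array difference, the brightest departed most from 144435_at, by -0.84 at 5 h against 0 h (two-sided exact p = 0.0167, adjusted p = 0.0667 over 24 such tests), which did not pass.

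Pka-R1 encodes a regulatory subunit of PKA, the subunit that holds the kinase inactive until cAMP binds. Its 3 probe sets disagreed. One of them (155037_at) read 5.77, 5.82 and 6.28 log2 at -18 h (lowest, median and highest), 4.29, 4.70 and 5.10 at 0 h, and 4.93, 5.04 and 4.86 on the 3 arrays at 5 h. Every larval array was higher than every later array, so neither later group overlaps the larval one. It was 2.32-fold lower at 0 h than at -18 h, with means of 4.69 ± 0.27 and 5.90 ± 0.18 (n = 7 each, SD), a log2 difference of -1.21 (SE 0.11, limma adjusted p = 1.8e-08). At 5 h it was 1.94-fold lower than at -18 h (4.95 ± 0.09, n = 3, and 5.90 ± 0.18, n = 7, SD), a difference of -0.95 (SE 0.14, limma adjusted p = 2.96e-05). Between 5 h and 0 h it differed by 0.26 (95% interval -0.03 to 0.55, adjusted p = 0.433), which did not pass.

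The Pka-R1 probe set of highest mean over all arrays (149149_at) differed far less between stages. It read 5.59, 5.80 and 5.88 at -18 h (lowest, median and highest), 5.36, 5.63 and 5.83 at 0 h, and 5.57, 5.65 and 5.51 at 5 h, and all 3 groups overlap. The difference at 0 h against -18 h was -0.20 (SE 0.07, limma adjusted p = 0.0515), just outside the threshold. It passed with dim probe sets left out, after quantile normalisation and with 3 of the 17 arrays left out in turn (adjusted p down to 0.0153). With the median over the 3 probe sets, the difference was -1.08 at 0 h against -18 h (limma adjusted p = 2.37e-08) and -0.82 at 5 h against -18 h (5.64e-05), and both passed. As 151120_at lay lowest, that median was the lower of 149149_at and 155037_at on each array. It was 155037_at on every later array and 149149_at on most larval ones. The median thus sets the level of one probe set against that of another and gives no separate support for a fall of the gene. The difference of change between the 2 probe sets, 149149_at minus 155037_at, was 1.01 at 0 h against -18 h (two-sided exact permutation p = 0.000583, the smallest that 3432 assignments allow, adjusted p = 0.00699 over 24 tests). It was 0.74 at 5 h against -18 h (exact p = 0.00833, adjusted p = 0.04), and at 5 h against 0 h -0.27 (exact p = 0.167). The third probe set (151120_at) lay at the floor on 6 of 7 larval arrays and on all later ones, and did not pass. The array annotation used here does not say which Pka-R1 transcripts each probe set reads.

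CrebB encodes the fly's cAMP-response-element binding factor, which long-term memory requires. Its probe set (143761_at) lay at the floor throughout, at 3.05, 3.22 and 3.53 log2 at -18 h (lowest, median and highest), 3.15, 3.24 and 3.43 at 0 h, and 3.19, 3.12 and 3.27 at 5 h. It was under the array's lower quartile on 6 of 7, 6 of 7 and 3 of 3 arrays. The stages overlap, nothing passed (limma adjusted p of 0.919, 0.884 and 0.659), and no fold is given, since neither side has a measured level.

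**Figure D2:**
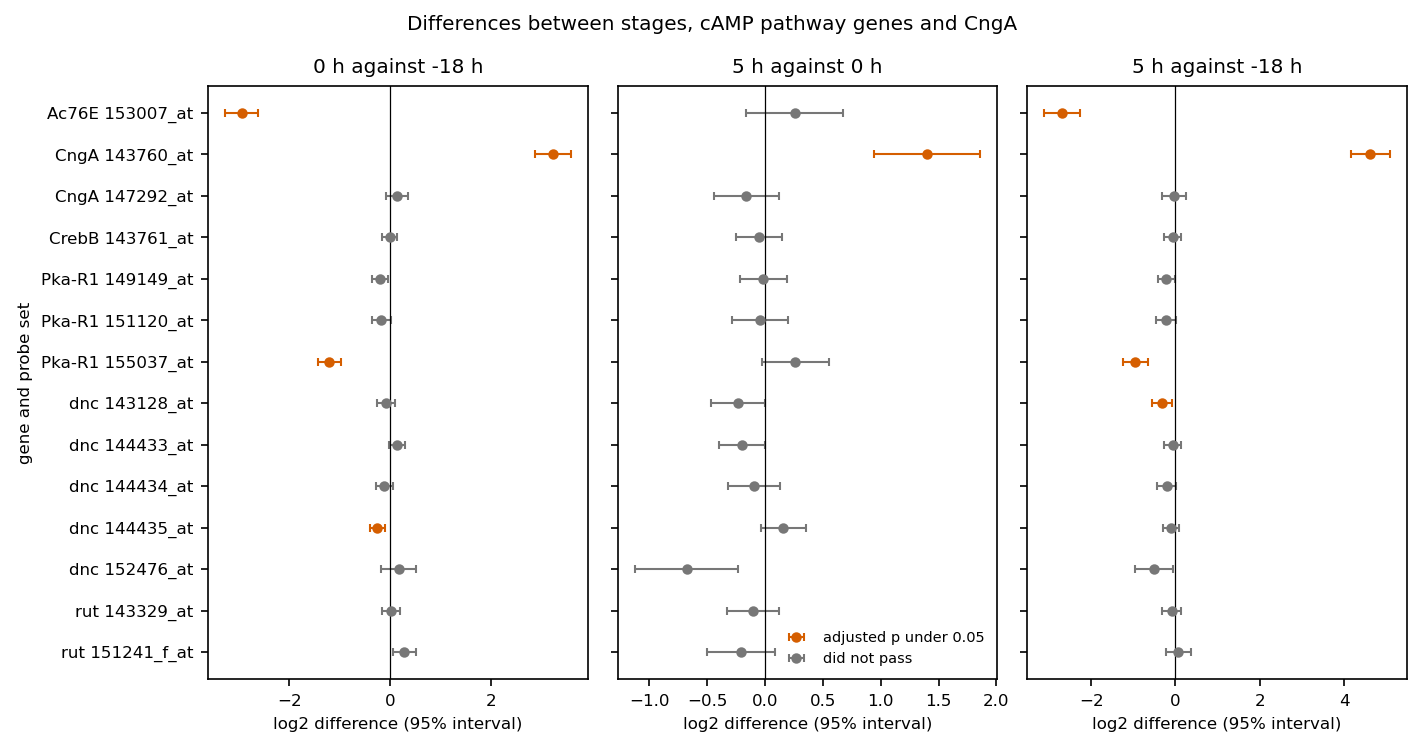
Log2 difference between stages (horizontal axis, 0 marks no difference) for each of the 14 probe sets, for the 3 comparisons in the order above, each panel on its own scale. Points are limma estimates with 95% intervals, and coloured points passed an adjusted p of 0.05. CngA 143760_at lies far to the right in all 3 panels, and Ac76E and Pka-R1 155037_at lie to the left in the panels against -18 h. The point of dnc 152476_at lies at -0.68 for 5 h against 0 h and at -0.51 for 5 h against -18 h. All remaining points lie closer to 0.

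CngA, the subunit of a cation channel gated by cyclic nucleotides, gave the widest change of the list. Probe set 143760_at read 2.77, 3.29 and 3.63 log2 at -18 h (lowest, median and highest), 5.51, 6.69 and 6.88 at 0 h, and 7.86, 7.90 and 7.97 on the 3 arrays at 5 h. The stages stand in steps with no overlap between any 2 of them. In larvae, 5 of 7 arrays lay under their lower quartile.

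The rise of CngA at 0 h was therefore at least 8.21-fold against -18 h. The measured means were 6.51 ± 0.48 at 0 h and 3.29 ± 0.28 at -18 h (n = 7 each, SD), a log2 difference of 3.22 (SE 0.17, limma adjusted p = 6.6e-12). At 5 h it was at least 21.7-fold higher than at -18 h, with means of 7.91 ± 0.06 (SD, n = 3) and 3.29 ± 0.28 (SD, n = 7) and a difference of 4.62 (SE 0.22, limma adjusted p = 2.35e-12). Against 0 h the 5 h level was 2.64-fold higher, a difference of 1.40 (SE 0.22, limma adjusted p = 0.000417). Ranked among all 13966 probe sets, CngA had the 7th largest rise at 0 h against -18 h, the 22nd at 5 h against 0 h and the 2nd at 5 h against -18 h.

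The 3 calls of this CngA probe set were kept under every alternative run. Among these, the filter at 4 log2 was met only through the levels at 0 h and 5 h. The median over probe sets contains this probe set, so neither of these alternatives is separate support. Prepupal array 7, at 5.51, lay below the other 6 (6.31 to 6.88), and without it the difference at 5 h against 0 h was 1.24. In the higher spike-in set the difference at 0 h against -18 h was 3.09, in the lower one 3.28, and within the lower set, which holds all 5 h arrays, the difference at 5 h against 0 h was 1.25. Without larval arrays 1, 4, 6 and 7 the rise at 0 h against -18 h was 3.12.

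A second probe set annotated to CngA (147292_at) did not follow. It spanned 4.46 to 4.92 in larvae, 4.43 to 5.35 in white prepupae and 4.62 to 4.73 at 5 h, with overlap throughout. Its differences were 0.13 (95% interval -0.09 to 0.34), -0.16 (-0.44 to 0.12) and -0.03 (-0.31 to 0.25) for the 3 comparisons in the order above. The change of 143760_at exceeded that of 147292_at by 3.09 log2 at 0 h against -18 h (two-sided exact permutation p = 0.000583, adjusted p = 0.00699 over 24 tests). The excess was 1.56 at 5 h against 0 h and 4.66 at 5 h against -18 h (exact permutation p = 0.00833 each, the smallest that 120 assignments allow, adjusted p = 0.04). Taking the median of both probe sets, which for 2 is their mean, gave 1.68, 0.62 and 2.30 for the 3 comparisons in the order above, and each passed. The differences of 147292_at lie near 0, so these values come from 143760_at and are no separate support for its rise. The tests between probe sets were chosen after the data had been seen.

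The list of related genes held 66 names, of which 55 had a probe set and are counted as measured, each by its brightest one. Of these, ACXA, ACXB, ACXC, ACXE, Pde6, Galphaf, Gyc32E, Nf1 and amn lay under the lower quartile on every array. For those genes the array gives no level, and a test that did not pass does not bear on a change. At 0 h against -18 h, 8 were higher and 8 lower of the 55 (29.1%, beside 25.5% of all probe sets). In the step to 5 h from 0 h, 0 were higher and 3 lower (5.45%, beside 3.77%). Over the whole span, 5 h against -18 h, 3 were higher and 8 lower (20.0%, beside 20.0%). The median difference over the 55 was -0.06, -0.07 and -0.09 in turn.

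Among the related channel genes, CngB took a different course from CngA after puparium formation. It encodes another subunit of cyclic nucleotide-gated channels. It read 7.10, 7.19 and 7.50 log2 at -18 h (lowest, median and highest), 9.12, 9.67 and 9.71 at 0 h, and 8.36, 8.24 and 8.01 at 5 h. The 3 stages do not overlap, and the 5 h arrays lie between the others.

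CngB averaged 9.52 ± 0.24 at 0 h and 7.25 ± 0.18 at -18 h (n = 7 each, SD), a difference of 2.27 (SE 0.10, limma adjusted p = 6.67e-13). At 5 h it averaged 8.20 ± 0.18 (SD, n = 3), which was lower than at 0 h by a log2 difference of -1.31 (SE 0.13, limma adjusted p = 3e-06) and higher than at -18 h by 0.96 (SE 0.13, limma adjusted p = 1.75e-05). The changes of CngA and CngB at 5 h against 0 h differed by 2.71 log2 (two-sided exact permutation p = 0.00833, the smallest that 120 assignments allow), in a test chosen after the data had been seen. Of the 5 channels measured, sei, a potassium channel of the ERG type, was also higher at 0 h than at -18 h (0.37, limma adjusted p = 0.00396), and Ih, the channel gated by voltage and cyclic nucleotides, was at least 1.14-fold lower at 5 h than at -18 h (limma adjusted p = 0.00265), with all 3 arrays at 5 h under the lower quartile. eag and Cngl did not pass in any comparison.

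**Figure D3:**
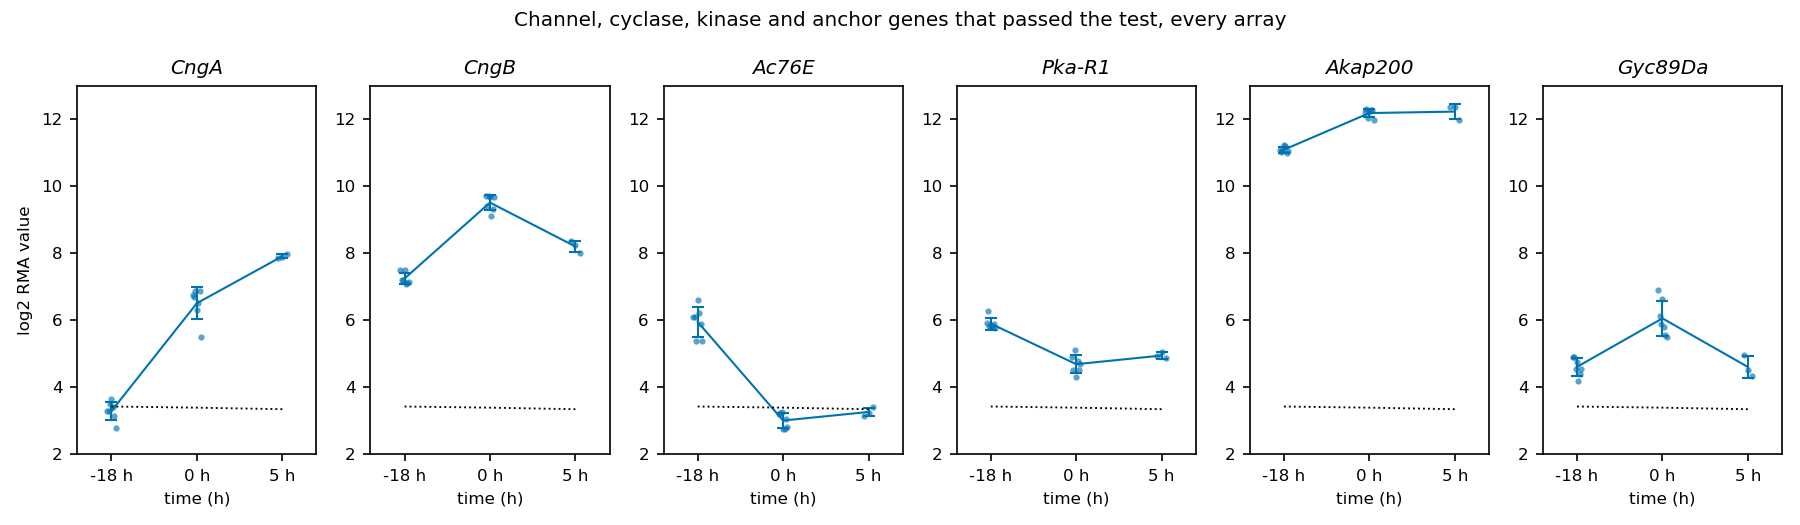
Log2 RMA value (vertical axis) at -18 h, 0 h and 5 h for CngA (143760_at), CngB, Ac76E, Pka-R1 (155037_at), Akap200 and Gyc89Da, with 1 panel per gene. Points are arrays, lines join group means, bars are SD (7, 7 and 3 arrays) and the dotted line is the mean lower quartile of the arrays. CngA is highest at 5 h, CngB and Gyc89Da at 0 h, and Ac76E and Pka-R1 at -18 h.

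Among the other 7 adenylyl cyclases measured, 1 was higher at 0 h than at -18 h and 1 was lower at 5 h than at 0 h. The shares of all probe sets were 13.6% and 1.42%. Ac13E averaged 4.51 ± 0.31 at 0 h and 3.63 ± 0.40 at -18 h (n = 7 each, SD), a difference of 0.87 (SE 0.16, limma adjusted p = 0.000175), with no overlap. As 3 of 7 larval arrays lay under their lower quartile, the rise is given as at least 1.74-fold. Ac78C read 5.70, 5.73 and 5.55 at 5 h, against 6.11, 6.57 and 6.69 at 0 h (lowest, median and highest), without overlap. That was a difference of -0.86 (SE 0.15, limma adjusted p = 0.000941), and against -18 h it was -0.65 (adjusted p = 0.00239). A second probe set of Ac78C did not pass at 5 h against 0 h (-0.23) and did against -18 h (-0.46). The 5 ACX cyclases did not pass, and all but ACXD lay under the lower quartile on every array. Of the 5 phosphodiesterases other than dnc (Pde1c, Pde6, Pde8, Pde9 and Pde11), 0 passed in limma by their brightest probe sets in any comparison, and 0 had an unadjusted p under the threshold. The second probe set of Pde8 passed at 5 h against -18 h (-0.33, limma adjusted p = 0.00776).

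In the list of PKA catalytic subunits and anchors, 1 of 6 genes rose and 1 fell at 0 h against -18 h. Of all probe sets, 13.6% were higher and 11.9% lower in that comparison. Akap200, an anchor that binds regulatory subunits of PKA, averaged 12.19 ± 0.13 log2 at 0 h and 11.10 ± 0.09 at -18 h (n = 7 each, SD), with no overlap. The difference was 1.10 (SE 0.08, limma adjusted p = 4.8e-10), and at 5 h against -18 h it was 1.14 (SE 0.10, limma adjusted p = 2.91e-08). mtd, which was placed in this list but is known as a gene of oxidation resistance and immunity, was lower at 0 h than at -18 h (-0.88, limma adjusted p = 0.000177) and at 5 h than at -18 h (-0.68, adjusted p = 0.0206), while its second probe set differed by -0.01 at 0 h against -18 h. Pka-C3, the one catalytic subunit with a probe set, did not pass. It lay under the lower quartile on 7 of 7 arrays at -18 h, 7 of 7 at 0 h and 2 of 3 at 5 h. Its test therefore does not bear on whether the gene changed.

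Among 9 heterotrimeric G protein genes, Galphaq was higher at 0 h than at -18 h (0.54, limma adjusted p = 0.0197) and Gbeta5 lower (-0.53, limma adjusted p = 0.0139). Galphas, which carries receptor signals to adenylyl cyclase, did not pass in any comparison. A second probe set of Galphao was lower at 0 h and at 5 h than at -18 h (-0.32 and -0.44, limma adjusted p = 0.0319 and 0.0281), while its brightest did not pass. Of 6 CREB coactivators and related factors, Atf6, a factor of the endoplasmic reticulum stress response, was higher at 0 h (0.43, limma adjusted p = 0.000116). Crtc and nej, coactivators of CREB, did not pass. The cGMP-dependent kinase gene for was higher at 0 h and at 5 h than at -18 h (0.58 and 0.79, limma adjusted p = 0.0486 and 0.0438).

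Guanylyl cyclases make cGMP, a further ligand of these channels. Of 5 measured, 1 was higher and 2 were lower at 0 h than at -18 h, where 13.6% and 11.9% of all probe sets were. Gyc89Da, a subunit of an atypical soluble cyclase, averaged 6.06 ± 0.53 at 0 h and 4.61 ± 0.27 at -18 h (n = 7 each, SD), a difference of 1.45 (SE 0.19, limma adjusted p = 3.62e-06). At 5 h it averaged 4.60 ± 0.33 (SD, n = 3), lower than at 0 h by a difference of -1.45 (SE 0.24, limma adjusted p = 0.000853). Gycalpha99B, the alpha subunit of the cyclase that nitric oxide activates, was lower at 0 h and at 5 h than at -18 h (-0.94 and -1.11, limma adjusted p = 4.57e-05 and 0.000219). Gyc88E was lower at both times by smaller amounts (-0.31 and -0.38, limma adjusted p = 0.0228 and 0.039).

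Of 8 measured learning genes that act with cAMP, 4 were lower at 0 h than at -18 h and 0 were higher, where 11.9% and 13.6% of all probe sets were. Dop1R1 is the 1 of the 4 with a measured level on every array of both groups. Dop1R1, a dopamine receptor that raises cAMP and is needed in mushroom body neurons for odour learning, averaged 3.84 ± 0.16 at 0 h and 4.75 ± 0.30 at -18 h (n = 7 each, SD), with no overlap. The difference was -0.91 (SE 0.11, limma adjusted p = 2.05e-06), and at 5 h against -18 h it was -1.05 (limma adjusted p = 1.65e-05). The neuropeptide gene sNPF lay under the lower quartile on 5 of 7 arrays at 0 h and on 3 of 3 at 5 h, and was at least 1.16-fold and at least 1.22-fold lower there than at -18 h (limma adjusted p = 0.00159 and 0.000342). Nf1, a regulator of Ras and of cAMP, and Syn, a synaptic vesicle gene, had lower values at 0 h (-0.33 and -0.51, limma adjusted p = 0.00557 and 0.00932) at means of 2.71 and 2.73 log2, where the array gives no measured level. The learning genes orb2, amn, CanA1 and CanB2 did not pass at 0 h against -18 h.

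**Figure D4:**
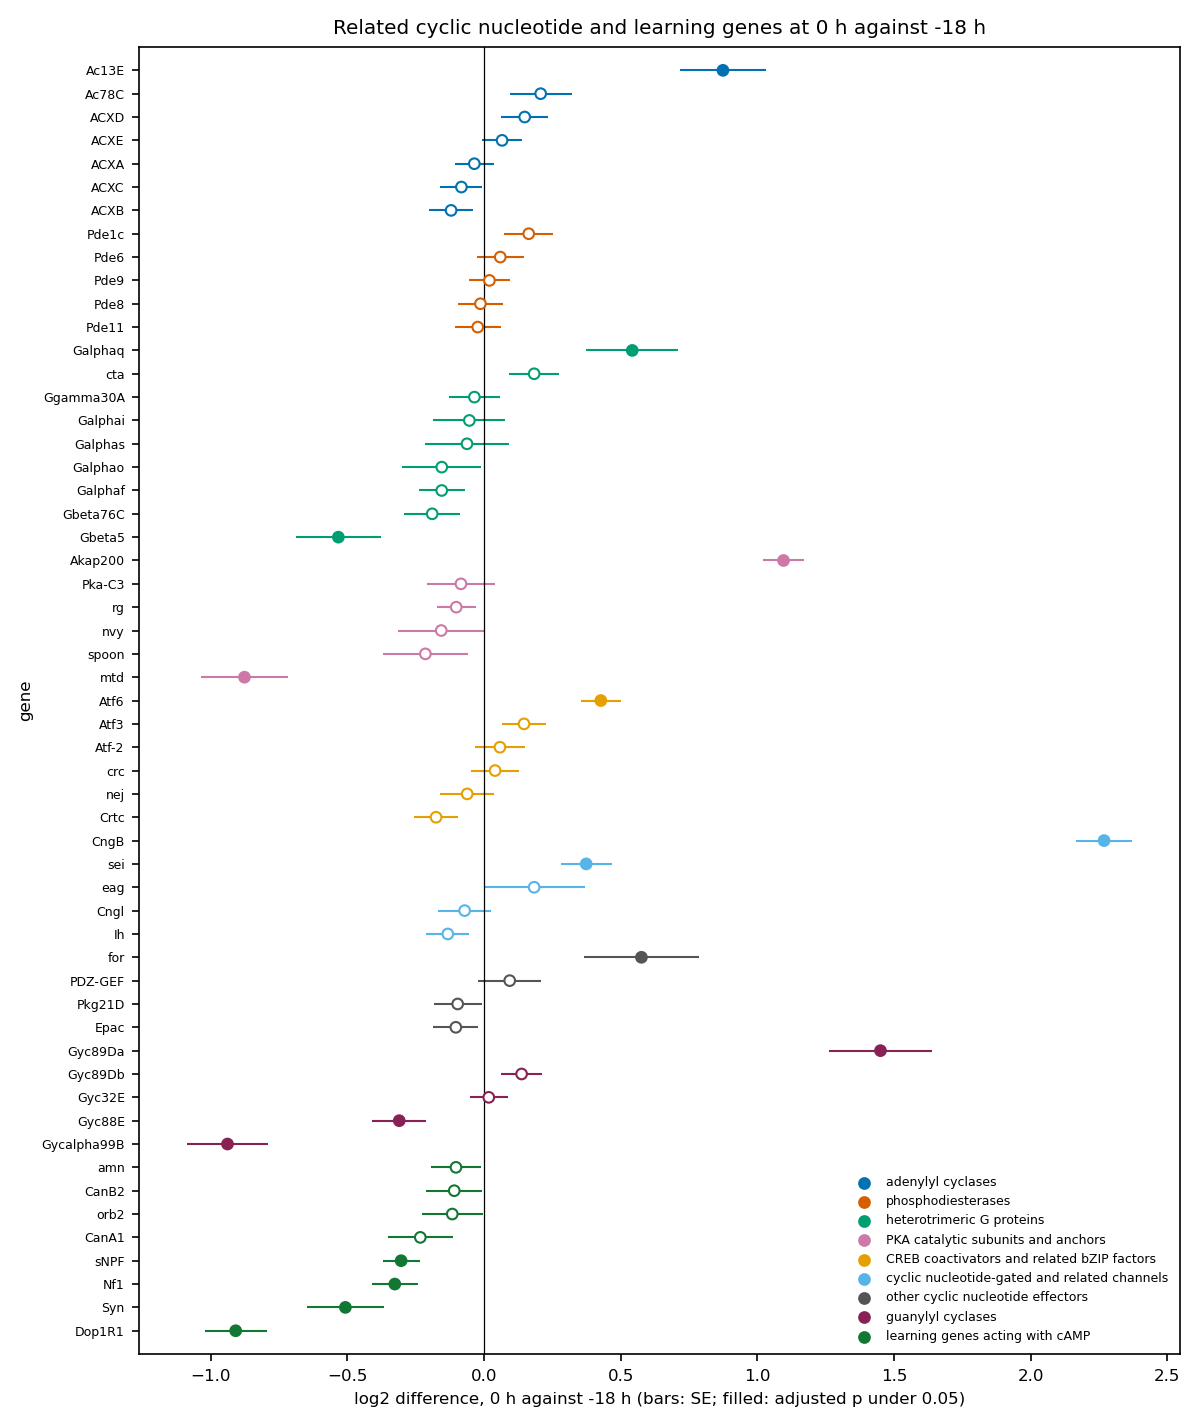
Log2 difference at 0 h against -18 h (horizontal axis) for the 55 related genes measured, grouped by list. Points are limma estimates, bars are SE and filled points passed an adjusted p of 0.05. CngB, Gyc89Da and Akap200 are the filled points farthest right, and Gycalpha99B, Dop1R1 and mtd the filled points farthest left.

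Over the 3 comparisons the related genes gave 30 calls, of which 17 kept their call under every alternative run and 13 lost it under at least 1. The 13 were those of Galphaq, Gbeta5, sei and Syn at 0 h against -18 h, of sNPF at 0 h against -18 h, of mtd and Ih at 5 h against -18 h, and of for, Gyc88E and Nf1 in both comparisons with larvae. Those of CngB, Akap200, Gyc89Da, Gycalpha99B, Dop1R1, Ac13E, Ac78C and Atf6 were kept.

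The genes whose values followed each changed member most closely over the 17 arrays are given as a description. For CngA they were CG6891 (Pearson r = 0.98, Spearman rho = 0.93), CG12643 (0.98, 0.88) and CG3036 (0.98, 0.93). CG3036 averaged 5.45 ± 0.42 at -18 h, 8.03 ± 0.22 at 0 h and 9.24 ± 0.07 at 5 h (SD, n = 7, 7 and 3). For Ac76E they were Glys, glycogen synthase (r = 0.99, rho = 0.96), PCB, pyruvate carboxylase (0.99, 0.90), and Mpcp2, a mitochondrial phosphate carrier (0.99, 0.95). Glys averaged 7.81 ± 0.23 at -18 h, 6.36 ± 0.21 at 0 h and 6.58 ± 0.03 at 5 h (SD, n = 7, 7 and 3). With the stage means taken off, r was 0.58, 0.11 and 0.24 for the genes named with CngA and 0.86, 0.76 and 0.77 for those named with Ac76E. The arrays share their stage, captures and amplification, so the points are not independent.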

How the data were processed

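Each array is 1 sample of laser-captured neuron cell bodies from the Affymetrix Drosophila Genome Array. Per the submitters' processing notes, the authors used Affymetrix Expression Console and RMA to make the deposited log2 values. The sources used here give neither versions nor whether all arrays were normalised together. Of 14010 probe sets, 44 controls were left out. Of the 13966 tested, 12443 had 1 gene symbol, 327 several and 1196 none in the platform annotation. Symbols were updated by gene ID through a RefSeq table of fly Release 6, in which 49 single symbols had no match. No coordinates or sequences were used.

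The deposited log2 values were fitted with limma 3.58.1 in R 4.3.3 (lmFit and eBayes) over all 17 arrays with stage as the only term, two-sided, with Benjamini-Hochberg adjustment over all 13966 probe sets and a threshold of 0.05. A gene with several probe sets was represented by the one of highest mean, with the others beside it. Intervals are 95%. Where every array, or part of a group, lay under the array's lower quartile, those arrays were set to it for an "at least" fold. Apart from the medians over probe sets, no level is compared between probe sets. The number of arrays limits the precision, with 3 at 5 h.

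All probe sets of the members were named, and related genes were named where they passed. For members spanning 1 log2 or more by their brightest probe set, the 3 genes of highest correlation were named. The members, gene lists and alternatives were chosen with earlier results of these data known. The fit was tested on simulated data first. Alternatives were quantile normalisation, a trended and robust prior, a filter at 4 log2, only the 2 stages compared, a replicate block, spike-in sets, larval arrays left out, each array left out and, per gene, the median over probe sets. The filter was on the highest of the 3 stage means, so a probe set high in 1 stage met it.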

Additional observations from a re-analysis of the deposited data

Results flagged for a closer look

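In groups of 7 arrays, 1 array was set apart from the others by Dixon's criterion in 7 of 64 groups tested, and in 4 of 28 groups of the members' probe sets, where chance gives about 1 in 20. CngA 143760_at read 5.51 log2 on 0 h array 7, against 6.31 to 6.88 on the others. Ac78C read 6.11 on the same array, against 6.50 to 6.69, and 6.94 on -18 h array 4, against 6.05 to 6.30. Array 7 had the highest mean spike-in signal of the 17 arrays (9.58) and the lowest eIF4a 3′ minus middle difference of the 0 h arrays (2.53). Pka-R1 155037_at read 6.28 on -18 h array 2, against 5.77 to 5.92. dnc 144433_at read 3.60 on -18 h array 4, against 3.72 to 3.81, and dnc 144434_at read 3.74 on -18 h array 7, against 3.25 to 3.46. Nf1 read 2.91 on 0 h array 2, against 2.60 to 2.73, all under the lower quartile.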

How the results depend on the processing

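Of 42 results on the members (14 probe sets in 3 comparisons), 21 kept their direction and their side of the threshold under every alternative that gave a value. Of the 9 called, 7 were kept throughout and 2 were lost under some, both of dnc. Of the 33 not called, 6 passed under some alternative and 14 turned in sign. The count of all called probe sets at 0 h against -18 h was 3568, and 2244 within the higher spike-in set, which has fewer arrays. Between 5 h and 0 h it was 527, and 304 to 562 with 1 array left out. It was 332, 311 and 304 without the 5 h replicates 1, 2 and 3. For 5 h against -18 h, leaving out 1 array gave 1938 to 3274 around 2799, and at 0 h against -18 h 3270 to 3953. Members called at 5 h against 0 h were 2, in place of 1, with only those stages in the fit. With 1 array left out they were 4 to 6 at 0 h against -18 h, 1 at 5 h against 0 h and 3 to 5 at 5 h against -18 h.

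Where the median of probe sets turned the sign for dnc or Pka-R1, it held the value of another probe set, 144435_at or 155037_at. The cause of the other turns of sign was not tested. Each turn of sign was of a difference that had not passed. At 0 h against -18 h these were rut 143329_at (-0.0069 after quantile normalisation, -0.0022 in the lower spike-in set, -0.0793 without 4 larval arrays), dnc 143128_at (0.0961, lower set), dnc 152476_at (-0.0429 in the higher set, -0.2635 as the median of probe sets), Pka-R1 151120_at (0.0098, lower set), CrebB (0.0261 after quantile normalisation, 0.0011 with the spike-in block, 0.0236 within the higher set) and CngA 147292_at (-0.0213, lower set). For 5 h against 0 h they were dnc 152476_at (0.1596, median), Pka-R1 149149_at (0.0353 with the spike-in block, 0.0537 in the lower set, 0.2597 as the median), Pka-R1 151120_at (0.0036 after quantile normalisation, 0.0049 with the spike-in block) and CrebB (0.0034, lower set). At 5 h against -18 h they were rut 151241_f_at (-0.0793 with the spike-in block, -0.0909 in the lower set, -0.0142 as the median), dnc 144433_at (0.0027 after quantile normalisation, 0.0061 with the replicate block, 0.0319 with the spike-in block), CrebB (0.0163, quantile normalisation) and CngA 147292_at (0.1063 with the replicate block, 0.0747 with the spike-in block). With 1 array left out, the differences spanned -0.0304 to 0.0519 for rut 143329_at and -0.0511 to 0.0289 for CrebB at 0 h against -18 h. They spanned -0.0524 to 0.0257 for Pka-R1 149149_at at 5 h against 0 h, -0.0555 to 0.18 for rut 151241_f_at and -0.0755 to 0.0007 for CngA 147292_at at 5 h against -18 h.

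The labels do not say whether arrays of the same replicate number are paired, and the weak correlations here cannot settle it. Deviations of same-numbered arrays correlated at -0.28 to 0.37, and 1 of 7 arrays at 0 h correlated best with its own number at -18 h. With the replicate block, 3623, 399 and 2682 probe sets were called in the 3 comparisons, in the order used above, and 5, 1 and 5 of the members. Dropping dim probe sets gave no value for CrebB, dnc 144433_at, dnc 144434_at and Pka-R1 151120_at, and the higher spike-in set holds 0 arrays of 5 h. Members at the floor give bounds only.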
